A study of Caenorhabditis elegans with 2 samples.

Results

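Chromatin immunoprecipitation followed by sequencing (ChIP-seq) peaks of NHR-12 were examined at 33 protein-coding genes of the worm proteasome, among 19973 nuclear protein-coding genes. The 33 were chosen by symbol from the Ensembl release 115 annotation of WBcel235, the assembly also called ce11. The core particle has 14 genes, of which 7 pas genes encode the alpha rings and 7 pbs genes the beta rings. The regulatory particle has 19 of the 33, of which 6 rpt genes encode the ATPases of its base and 13 rpn genes encode other subunits. NHR-12 is a nuclear hormone receptor of Caenorhabditis elegans, and it was studied as an eGFP fusion in whole L2 larvae of strain OP318, with both sexes pooled. That strain carries the transgene wgIs318 and the unc-119(ed3) mutation on chromosome III. Which promoter drives the fusion is not stated in these sources. The 2 samples were biological replicates of this 1 group, so there was no second condition to test against, and worms without the tagged protein were not analysed here.

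The proteasome degrades proteins that carry ubiquitin. Its core particle is a barrel of stacked rings whose beta subunits cut peptide bonds inside, and the regulatory particle on its end receives the substrate. Within the regulatory particle, the lid removes ubiquitin and the ATPases of the base unfold the protein and thread it into the barrel. In C. elegans, an isoform of the transcription factor SKN-1 raises the expression of proteasome genes together when degradation fails. Many worm transcripts are trans-spliced, so an annotated 5′ end can be a splice site instead of the start of transcription.

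Peaks came from 4 deposited lists. The pooled relaxed list held 29431 peaks called on both replicates together, and the relaxed lists of replicate 1 and replicate 2 held 30000 peaks each. The thresholded list held 228 peaks that passed a threshold on replicate agreement in rank. These were the 228 highest peaks of the pooled relaxed list. Mitochondrial DNA held 29 of the 228. It also held 30 peaks of the pooled relaxed list, 29 of replicate 1 and 28 of replicate 2. A relaxed list includes background by design, so a peak in it is weak evidence alone. The value of a peak is the authors' signal, whose scale differs between lists (its median was 12.6 in the pooled list, 3.70 in replicate 1 and 10.7 in replicate 2). Ranks were therefore taken within a list, with rank 1 for the highest signal, and the mitochondrial peaks were ranked along with the nuclear ones. A gene was said to have a summit when the point of maximal enrichment of a peak lay within 1000 bp of its annotated 5′ end. Negative distances lie upstream.

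The DNA around some of the summits described below is printed from the RefSeq genome of WBcel235. It runs 5′ to 3′ on the strand of the proteasome gene, with the summit at base 76. The first window belongs to rpn-3, the only proteasome gene with a thresholded peak, and lies at chrIII:8447079-8447229 on the plus strand. The next belongs to rpt-6, at chrIII:12369852-12370002 on the plus strand. Those of rpn-11, at chrII:4044547-4044656, and of pbs-1, at chrIV:1710019-1710169, both lie on the minus strand. rpn-11 had the smallest gap between replicate summits, and pbs-1 is a core gene with a summit in both replicates. The last, for rpn-5 at chrII:4698428-4698532 on the minus strand, is centred on a summit found in replicate 1 alone. The windows of rpn-11 and rpn-5 stop at the base before the annotated 5′ end. Capitals mark matches on either strand to the motifs AGGTCA (the nuclear receptor half-site), GTCAT (part of the SKN-1 site) and TTTCAG (a splice acceptor).
rpn-3: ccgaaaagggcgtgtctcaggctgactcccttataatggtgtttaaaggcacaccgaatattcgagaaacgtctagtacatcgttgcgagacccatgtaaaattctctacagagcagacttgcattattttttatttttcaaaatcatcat
rpt-6: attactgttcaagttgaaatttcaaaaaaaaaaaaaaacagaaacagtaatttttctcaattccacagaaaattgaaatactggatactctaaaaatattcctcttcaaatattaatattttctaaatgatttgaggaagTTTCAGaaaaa
rpn-11: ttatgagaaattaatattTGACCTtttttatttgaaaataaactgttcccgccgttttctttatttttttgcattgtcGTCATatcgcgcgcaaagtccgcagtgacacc
pbs-1: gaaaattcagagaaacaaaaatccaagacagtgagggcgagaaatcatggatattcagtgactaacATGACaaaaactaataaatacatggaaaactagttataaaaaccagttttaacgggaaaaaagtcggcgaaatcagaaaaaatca
rpn-5: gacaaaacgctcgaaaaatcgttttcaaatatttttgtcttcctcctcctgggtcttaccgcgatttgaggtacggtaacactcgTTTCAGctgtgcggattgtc

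The rpn-3 window held no match to the 6 motifs searched, which also included GAGAGA (a GA repeat), GGGCGG (a GC box) and CACGTG (an E-box). The rpn-11 window held AGGTCA on the other strand, 57 bases upstream of the summit, and GTCAT 3 bases downstream of it. In the pbs-1 window GTCAT was on the other strand, 9 bases upstream of the summit. TTTCAG began 65 bases downstream of the summit in the rpt-6 window and 10 bases downstream in the rpn-5 window. GC content was 39.7% for rpn-3, 22.5% for rpt-6, 35.5% for rpn-11, 32.5% for pbs-1 and 44.8% for rpn-5. A match is a description of letters and not a measured binding site.

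The share of proteasome genes with an NHR-12 summit lay near that of all genes in the relaxed lists, above it in replicate 1 and below it in replicate 2 and the pooled list. Replicate 1 fell below it as well when a summit counted for its nearest protein-coding gene alone. In the thresholded list 1 of 33 had a summit, or 3.03%, beside 0.926% of all protein-coding genes. In the pooled relaxed list 13 had one, or 39.4%, beside 46.1% of all genes. In replicate 1 there were 19 proteasome genes with a summit, or 57.6%, against 50.1% of all genes, and in replicate 2 there were 12, or 36.4%, against 46.6%. Both replicates had a summit at 8 of the 33 genes, or 24.2%, beside 27.4% of all genes. Counting any of the 4 lists, 23 genes had a summit, or 69.7%, beside 71.1% of all genes. These are counts of genes in 1 group of samples and carry no test.

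**Figure D1:**
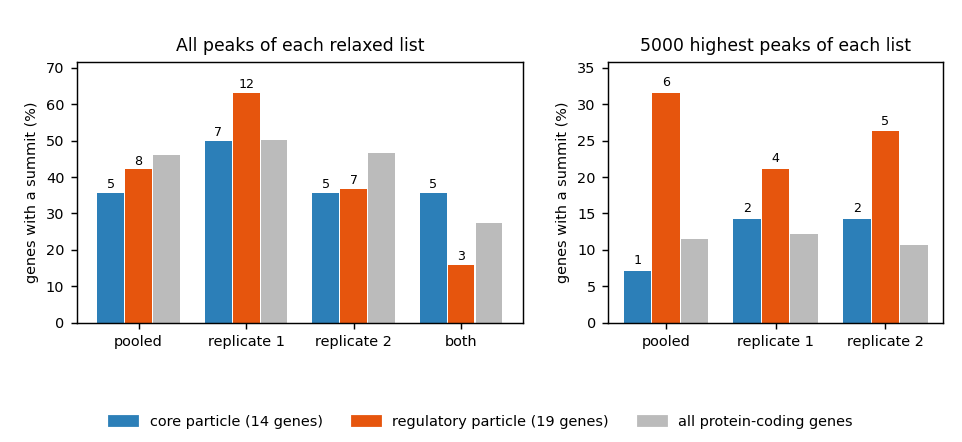
Share of genes with a summit within 1000 bp of the 5′ end (percent, vertical axis) in each list, for the core particle, the regulatory particle and all protein-coding genes. In the pooled list the bars stand at 35.7%, 42.1% and 46.1%, and in both replicates at 35.7%, 15.8% and 27.4%.

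Among strong peaks the shares lay above those of all genes in each list, on few genes. The 1000 highest peaks of the pooled list touched 3 proteasome genes, or 9.09%, beside 3.52% of all genes. In replicate 1 they touched 2, or 6.06%, beside 3.42%, and in replicate 2 they touched 3, or 9.09%, beside 3.00%. With the 5000 highest peaks the counts were 7 in the pooled list, or 21.2%, beside 11.5% of all genes, 6 in replicate 1, or 18.2%, beside 12.2%, and 7 in replicate 2, or 21.2%, beside 10.7%. Of the 6 and 7 genes found by the replicates, only pbs-2 and rpn-3 were among the 5000 highest in both, which is 6.06% of the 33, beside 3.41% of all genes.

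Where proteasome genes had a summit, its median rank was better than for all genes with one. The median rank of the strongest summit was 4564 for the 13 proteasome genes of the pooled list and 11786 for the 9213 protein-coding genes with a summit there. In replicate 1 it was 7709 for the proteasome genes and 12315 for all genes, and in replicate 2 it was 4481 for the proteasome genes and 12250 for all genes. The proteasome genes still ranged widely, with pooled ranks between 215 and 23605 of 29431. The ranks ran between 233 and 29455 in replicate 1 and between 334 and 17463 in replicate 2, of 30000 each.

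**Figure D2:**
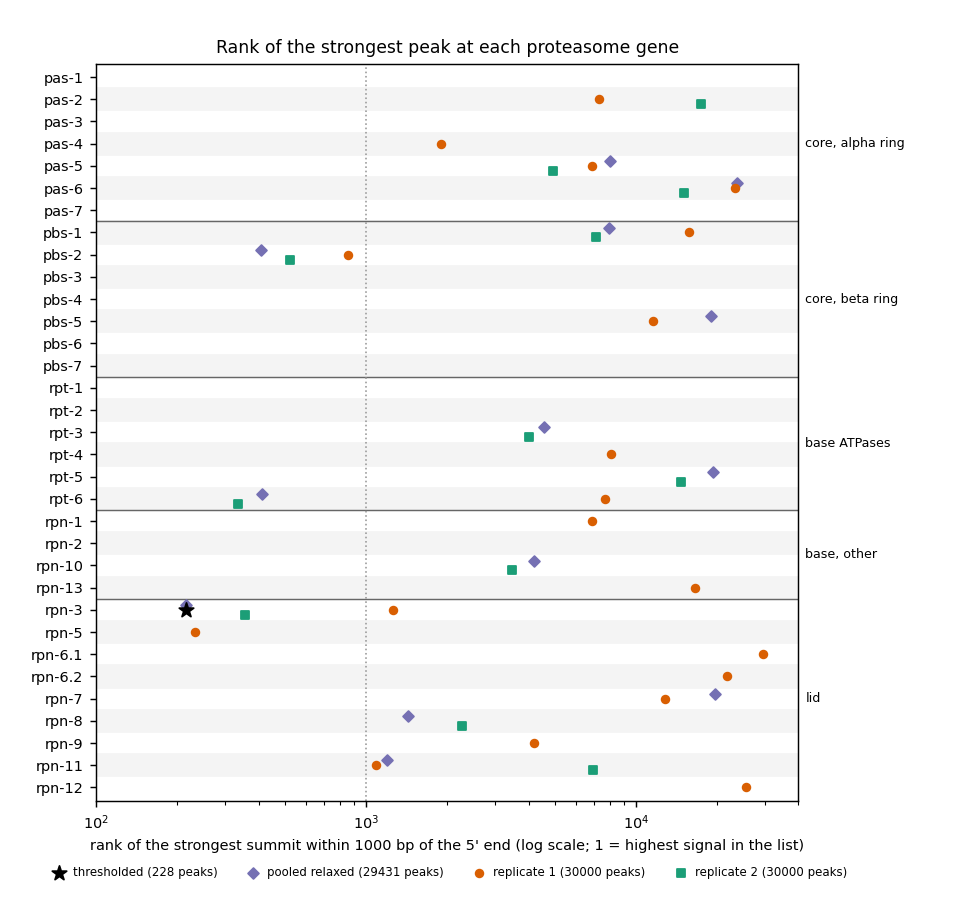
Rank of the strongest summit within 1000 bp (log scale) of each proteasome gene in the pooled list and in each replicate. rpn-3, pbs-2 and rpt-6 lie inside the 1000 highest peaks of the pooled list, and 10 genes have no summit in any list.

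The core particle, the proteolytic barrel, had summits at 5 of 14 genes in the pooled list (35.7%). The regulatory particle had them at 8 of 19 genes (42.1%), beside 46.1% of all genes. In replicate 1 the counts were 7 of 14 core genes (50%) and 12 of 19 regulatory genes (63.2%), beside 50.1% of all genes. In replicate 2 they were 5 of 14 (35.7%) and 7 of 19 (36.8%), beside 46.6%. The core share minus the regulatory share was -13.2 percentage points in replicate 1 and -1.13 points in replicate 2 (SD 8.51, n = 2 replicates), and -6.39 points in the pooled list. The spread between the replicates exceeded the pooled difference, and with a limit of 2000 bp the pooled difference turned to 9.77 points. Both replicates had a summit somewhere within 1000 bp at 5 of 14 core genes (35.7%), against 3 of 19 regulatory genes (15.8%). The share of all genes was 27.4%. With replicate summits within 200 bp of each other the counts were 2 of 14 core genes (14.3%) and 3 of 19 regulatory genes (15.8%). Of all 19973 genes, 2853 had such a pair. The 5000 highest peaks of the pooled list touched 1 core gene (7.14%) and 6 regulatory genes (31.6%), beside 11.5% of all genes. Those of replicate 1 touched 2 (14.3%) and 4 (21.1%), beside 12.2%. Those of replicate 2 touched 2 (14.3%) and 5 (26.3%), beside 10.7%. Between 1000 and 2000 bp, pooled summits of ranks 175, 264, 379 and 2884 lay near the core genes pbs-2, pbs-5, pbs-6 and pas-2. The best pooled summit there near a regulatory gene had rank 9468, at rpn-13. Each of these summits was nearer the 5′ end of another protein-coding gene. In replicate 1 the best ranks at this distance were 119 at pbs-2 for the core and 1310 at rpn-8 for the regulatory particle. In replicate 2 they were 183 at pbs-5 and 7308 at rpn-13. Genes are not replicates, so the difference between the particles was not tested.

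In the alpha rings, which form the gate of the barrel, pas-2, pas-5 and pas-6 had a summit in both replicates. pas-5 (WBGene00003926, chromosome I, 10566350 to 10567300, plus strand) had its strongest pooled summit 521 bp upstream, at rank 7994 and signal 15.4. Replicate 2 placed it at -520 bp, at rank 4945 and signal 14.8, while the strongest replicate 1 summit stood at -948 bp, at rank 6899 and signal 5.06. That replicate 1 summit lay in an exon of the non-coding gene F25H2.15, 136 bp from the 5′ end of F25H2.15. The replicates therefore shared the gene but not the point.

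pas-6 (WBGene00003927, chromosome V, 5583161 to 5584343, minus strand) had 3 pooled summits, at -358, -100 and -584 bp, and all were weak. The strongest of them had rank 23605 and signal 10.4. In replicate 1 its summit was at -802 bp, rank 23179 and signal 2.90, inside the 5′ UTR of the divergent neighbour CD4.11. In replicate 2 the strongest was at -597 bp, rank 15057 and signal 10.7. pas-2 (WBGene00003923, chromosome V, 10770368 to 10771351, plus strand) had no pooled summit. It had a replicate 1 summit at -251 bp, rank 7317 and signal 4.95, inside the 5′ UTR of D1054.1, and a replicate 2 summit at -4 bp, rank 17463 and signal 10.1. pas-4 had a summit in replicate 1 alone, at +36 bp and rank 1900, and its nearest pooled summit was 4715 bp away. pas-1, pas-3 and pas-7 had none in any list.

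In the beta rings, pbs-2 and pbs-1 had a summit in both replicates. pbs-2 encodes the beta2 subunit, which in yeast and mammals is one of the catalytic subunits (WBGene00003948, chromosome I, 12967216 to 12968280, minus strand). Its summit stood at -517 bp in the pooled list, with rank 409 and signal 30.9. Replicate 1 gave -602 bp, rank 857 and signal 9.23, and replicate 2 gave -514 bp, rank 524 and signal 22.98. It was the proteasome gene that reached the 1000 highest peaks in both replicates, but the pooled summit lay closer to the divergent neighbour eif-6, 149 bp from that gene's 5′ end. A second strong peak stood 1405 bp downstream of the pbs-2 5′ end, beyond the gene's own end and 80 bp from the 5′ end of the tubulin gene tba-2. It was thresholded peak 175 with signal 40.6, and fell outside the 1000 bp limit for pbs-2.

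pbs-1 (WBGene00003947, chromosome IV, 1708814 to 1709745, minus strand) encodes the beta1 subunit, which is also catalytic in yeast and mammals. Its pooled summit was at -349 bp, rank 7938 and signal 15.4, and the replicate 2 summit was at -354 bp, rank 7084 and signal 13.6. Replicate 1 had a weaker summit nearby, at -230 bp, rank 24338 and signal 2.81, and its strongest one in a coding exon at +687 bp, rank 15726 and signal 3.61. The intergenic summit of the pooled list was nearer to the divergent gene K08D12.3, at 171 bp. pbs-5, whose beta5 subunit is likewise catalytic in yeast and mammals, had a pooled summit at +166 bp with rank 19026 and a replicate 1 summit at +125 bp with rank 11606. In replicate 2 the nearest was at -1127 bp, a strong peak of rank 183 and signal 30.1 that lay 375 bp from the 5′ end of K05C4.2. pbs-3, pbs-4, pbs-6 and pbs-7 had none within 1000 bp. The nearest to pbs-6 was just beyond the limit, at 1065 bp with pooled rank 379, and 2 bp from the 5′ end of C02F5.12.

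**Figure D3:**
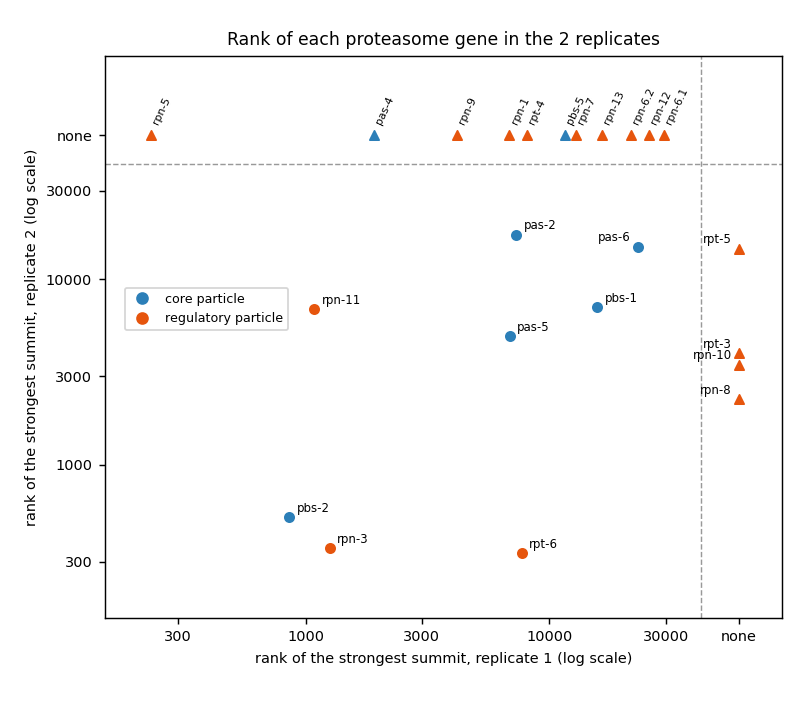
Rank of the strongest summit within 1000 bp in replicate 1 (horizontal, log scale) against replicate 2 (vertical, log scale) for each proteasome gene with a summit in either, with genes that have none in the other replicate drawn as triangles along the edges. 8 genes had a summit in both, 11 in replicate 1 alone and 4 in replicate 2 alone.

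Among the ATPases of the base, rpt-6 was the gene with a summit in both replicates (WBGene00004506, chromosome III, 12370456 to 12372607, plus strand). Its strongest summit stood at -529 bp in the pooled list, with rank 413 and signal 30.8. Replicate 2 gave -526 bp, rank 334 and signal 25.4, and replicate 1 gave -577 bp but a much lower rank, 7709, with signal 4.86. The position was shared, within 51 bp, and the rank was not. The interval between rpt-6 and the divergent histone gene his-72 is 1405 bp long. rpt-3 had a pooled summit at -740 bp, rank 4564, in the 3′ UTR of the upstream gene chtb-2, and a replicate 2 summit at -769 bp, rank 4017. rpt-5 had weak ones at -438 bp in the pooled list, rank 19329, and at -437 bp in replicate 2, rank 14634. rpt-4 had 1 in replicate 1, at +455 bp and rank 8080. rpt-1 and rpt-2 had none in any list.

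None of the 4 other genes of the base had a summit in both replicates. rpn-10, which encodes a ubiquitin receptor, had a pooled summit at -79 bp with rank 4191 and signal 18.1, and a replicate 2 summit at -74 bp with rank 3467 and signal 16.1. Its nearest summit in replicate 1 was at -1544 bp. rpn-1, which encodes a scaffold subunit, had 1 summit in replicate 1, at -883 bp and rank 6865, in a coding exon of the neighbour ribo-1. The ubiquitin receptor gene rpn-13 had 1 in replicate 1 at -482 bp, rank 16494. The scaffold gene rpn-2 had none in any list.

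In the lid, each gene chosen by symbol had a summit in at least 1 replicate, 9 of 9, beside 69.3% of all protein-coding genes. Replicate 1 gave 8 of the 9 (88.9%), beside 50.1% of all genes, and replicate 2 gave 3 (33.3%), beside 46.6%, with 2 in both (22.2%), beside 27.4%. The replicate 1 summits at rpn-6.1, rpn-6.2, rpn-7 and rpn-12 were nearer the 5′ end of another protein-coding gene. Counted for the nearest gene alone, replicate 1 summits remained at rpn-3, rpn-5, rpn-9 and rpn-11 of the 9, beside 44.5% of all genes. The high replicate 1 share of the lid thus depended on counting 1 summit for several genes. rpn-3 encodes a structural subunit of the lid (WBGene00004460, chromosome III, 8447353 to 8449346, plus strand). Its thresholded peak spanned positions 8446994 to 8447313 with the summit at -199 bp, rank 215 of 228 and signal 38.2. Replicate 1 placed it at -208 bp, rank 1259 and signal 8.24, and replicate 2 at -189 bp, rank 355 and signal 25.04. The replicate summits lay 19 bp apart. The peak sits in the 443 bp between rpn-3 and the divergent gene hsp-110, a chaperone of the heat shock family, and the nearest 5′ end of any kind of gene was that of the non-coding C30C11.14 at 59 bp. Which of these genes the peak belongs to cannot be told apart from its position.

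rpn-11 encodes the deubiquitinase of the lid (WBGene00004467, chromosome II, 4043055 to 4044546, minus strand). Its summits lay close to the 5′ end in both replicates, at -47 bp in replicate 1 and -35 bp in replicate 2. The ranks were 1087 (signal 8.60) in replicate 1, 6914 (signal 13.7) in replicate 2 and 1191 (signal 23.6) in the pooled list. rpn-8 encodes the partner subunit of that enzyme and had a pooled summit at -282 bp, rank 1429 and signal 22.7, with replicate 2 at -271 bp, rank 2269 and signal 17.5. The pooled summit was slightly nearer the 5′ end of mrps-6, at 263 bp. Replicate 1 had none within 1000 bp of rpn-8.

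The remaining lid genes had a summit in replicate 1 and none in replicate 2. For rpn-5 it stood at -30 bp, with rank 233 and signal 13.9, the best replicate 1 rank of the 33 genes. The other lists had nothing near: the nearest pooled summit was 11211 bp away and the nearest in replicate 2 was 11210 bp away. rpn-9 had a replicate 1 summit at -209 bp with rank 4188, and rpn-7 had one at -236 bp with rank 12835 and a pooled one at -238 bp with rank 19622. rpn-6.2, rpn-12 and rpn-6.1 had summits of ranks 21702, 25626 and 29455 among the 30000 peaks of replicate 1. The summit of rpn-6.2 lay in a coding exon of F59B2.15. Those of rpn-12 and rpn-7 were nearer the 5′ ends of rad-23 and F49C12.9 than their own. rpn-6.1, whose excess is known to raise proteasome activity in C. elegans, had its summit 20 bp from the 5′ end of F57B9.1 and 69 bp upstream of its own.

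Of the 8 genes with a summit in both replicates, the closest pair of summits lay within 200 bp at 5, or 62.5%, beside 2853 of 5474 protein-coding genes, or 52.1%. The gaps were 12 bp at rpn-11, 19 bp at rpn-3, 51 bp at rpt-6, 88 bp at pbs-2 and 124 bp at pbs-1. They were wider at pas-6 (205 bp), pas-2 (247 bp) and pas-5 (303 bp). The median gap was 106 bp at the 8 proteasome genes and 185 bp at all genes. Replicate 1 alone supplied 11 genes, or 33.3%, beside 22.7% of all genes, and 2 of those 11 had a pooled summit. Replicate 2 alone supplied 4, or 12.1%, beside 19.2% of all genes, and each of those 4 had a pooled summit. For all protein-coding genes the shares with a pooled summit were 22.9% of those in replicate 1 alone and 76.9% of those in replicate 2 alone. Read depth per replicate is unknown, and its part in this imbalance was not tested.

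Summits near proteasome genes lay mostly upstream. In the pooled list 16 of 18 were upstream (88.9%), beside 61.2% for all protein-coding genes. The share was 72.0% of 25 in replicate 1, beside 58.3%, and 92.9% of 14 in replicate 2, beside 60.7%. The median distance was -305 bp in the pooled list, beside -172 bp for all genes. In replicate 1 the core particle departed from this, with 5 of 10 summits upstream (50%), against 13 of 15 for the regulatory particle (86.7%). By annotation 15 of the 18 pooled summits were intergenic (83.3%), beside 50.1% of the 10479 pooled summits near a protein-coding gene, and 1 of 18 was in an intron (5.56%), beside 29.8%. In replicate 2 the intergenic share was 85.7%, beside 49.7%. Replicate 1 differed again, with 44.0% intergenic, beside 44.2%, and 32.0% in coding exons, beside 20.2%.

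**Figure D4:**
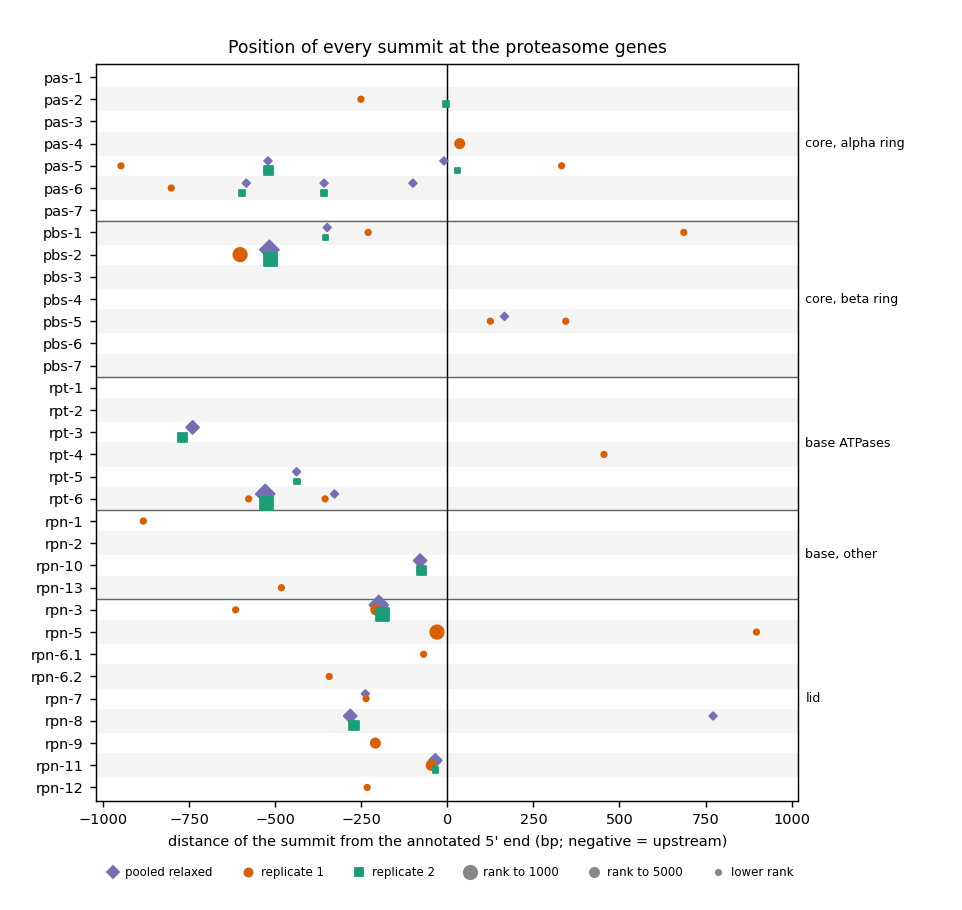
Distance of each summit from the annotated 5′ end of its proteasome gene (bp, negative upstream), by gene and list. Most points lie left of 0, with 16 of 18 pooled summits upstream, and the rpn-11 points sit together near the 5′ end.

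The neighbourhood of these genes differed from that of most genes, apart from any binding. A divergent gene lay upstream of 23 of 33 (69.7%), beside 46.2% of all genes, and the upstream gap was under 500 bp for 21 of 33 (63.6%), beside 33.7%. The median gap was 415 bp for proteasome genes and 937 bp for all genes. Proteasome genes with a gap of under 500 bp had a pooled summit in 6 of 21 cases, beside 2846 of 6728 genes with such a gap. Those with a longer gap had one in 7 of 12 cases, beside 6366 of 13240 genes. With a short gap 1 summit can count for both neighbours. The proteasome gene was the nearest protein-coding gene to 12 of the 18 pooled summits (66.7%), 16 of 25 in replicate 1 (64.0%) and 10 of 14 in replicate 2 (71.4%). Counting a summit for its nearest protein-coding gene alone, 9 of 33 proteasome genes had a pooled summit instead of 13. The count over all genes was 8252 (41.3%) instead of 9213. In replicate 1 the proteasome count was 11 of 33 instead of 19, beside 8886 of all genes (44.5%) instead of 10007. In replicate 2 it was 9 of 33 instead of 12, beside 8348 (41.8%) instead of 9305. Under this rule the proteasome share was below that of all genes in replicate 1 too.

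The 33 genes lay on 5 of the 6 nuclear chromosomes, with 10 on I, 7 on II, 8 on III, 3 on IV, 5 on V and 0 on X. Pooled summits fell at 6 of the 10 genes on I, 1 of 7 on II, 3 of 8 on III, 2 of 3 on IV and 1 of 5 on V. Of all protein-coding genes, the share with a pooled summit was 46% on I, 38.5% on II, 47.4% on III, 48.3% on IV and 45.2% on V. On X, which holds no proteasome gene, it was 53.7%.

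The promoters, taken as 250 bases before and 50 bases from the 5′ end on, were searched on both strands. AGGTCA was in 2 of 33 (6.06%), those of rpn-11 and rpn-6.2, beside 8.27% of all protein-coding promoters. GTCAT was in 19 (57.6%), beside 39.5%, and TTTCAG in 23 (69.7%), beside 51.7%. TTTCAG was in 13 of 14 core promoters (92.9%) and 10 of 19 regulatory ones (52.6%), while GTCAT was in 9 of 14 (64.3%) and 10 of 19 (52.6%). GAGAGA was in 6 of the 33 (18.2%), beside 21.8%, GGGCGG in 2 (6.06%), beside 7.83%, and CACGTG in 1 (3.03%), beside 5.82%. AGGTCA and GTCAT overlap where AGGTCA is followed by T. Median GC content was 34.3% in proteasome promoters and in all promoters. In windows of 101 bases around the 18 pooled summits, AGGTCA was in 0, beside 1.66% of all such windows, GTCAT in 3 (16.7%), beside 11.6%, and TTTCAG in 1 (5.56%), beside 20.0%. These windows had a median GC content of 31.7%, beside 28.7%.

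A list of 28 other genes of the ubiquitin pathway, which included dss-1 and other factors of the particle, gave shares close to those of the subunits. The thresholded list held 1 (3.57%), beside 0.926% of all protein-coding genes, and the pooled list 9 (32.1%), beside 46.1%. Replicate 1 had 16 (57.1%), beside 50.1%, replicate 2 had 10 (35.7%), beside 46.6%, and both had 7 (25%), beside 27.4%. The replicate 1 peak of rank 25626 counted for rad-23 in this list and for rpn-12. The thresholded gene was cdc-48.1, an ATPase that extracts ubiquitinated proteins for the proteasome. Its summit stood 180 bp upstream at pooled rank 32 and signal 108.1, with rank 27 in replicate 1 and 38 in replicate 2. ubq-2, a ubiquitin gene, had pooled rank 363, with 1159 in replicate 1 and 444 in replicate 2. skn-1, whose product regulates proteasome genes, had pooled rank 971 at -726 bp and replicate 2 rank 916 at -741 bp. Its strongest replicate 1 summit stood elsewhere, at -167 bp with rank 10536. The best pooled rank of a proteasome gene, 215 at rpn-3, lay below that of cdc-48.1.

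The 1000 bp limit had summits on either side. The farthest summits inside it were at rpn-8 in the pooled list (+772 bp), pas-5 in replicate 1 (-948 bp) and rpt-3 in replicate 2 (-769 bp). The nearest outside were at rpn-13 in the pooled list (+1051 bp), rpt-6 in replicate 1 (-1019 bp) and rpn-13 in replicate 2 (+1055 bp). For the 10 genes with no summit in any list, the nearest pooled summit was between 1065 and 14883 bp away, with a median of 4021.5 bp. At an unknown read depth these genes are without a detected summit, which does not show that NHR-12 was absent there.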

How the data were processed

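The deposited data are lists of peaks. Peaks, per the accompanying notes, were called against a control for each replicate and for both pooled, and a thresholded list was derived from these by the irreproducible discovery rate. For the caller, the aligner, their settings and the threshold, nothing was given in the sources used here. The signal and the −log10 q-value of each peak are as deposited by the authors. Signal ranked peaks within a list, and −log10 q was not used for ranking. The ce10 lists were not used.

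Summits within 1000 bp of the outer 5′ end of each Ensembl release 115 gene were assigned with Python 3.11.15, pandas 2.3.3 and numpy 2.4.6, and a summit could count for several genes. All peaks fitted the WBcel235 chromosome lengths. The procedure was tested on simulated peaks. With 1 group of 2 replicates no test was made. Members were named in full if they had a thresholded peak or a summit in both replicates, and the rest more briefly. The genes, the related list and the motifs were chosen with earlier results of these data known. Read depth is unknown, so no counting interval is given. Fragments were 150 to 350 bp long per the labels, which limits the resolution of a summit. Alternatives were the distance limit, the number of peaks kept, assignment to the nearest gene, the coincidence distance and leaving out a replicate. Further alternatives took the 5′ end of any transcript, or any part of the peak interval in place of the summit.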

Additional observations from a re-analysis of the deposited data

How the results depend on the processing

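Under the alternatives tried, 40 values stayed close to the reported ones and 19 moved. Close means within 1.5 times for a count of genes and within 1 SD over the replicates (8.51 points) for the core minus regulatory difference. The values that stayed close include those for the 5′ end of any transcript, which changed nothing, and for any part of the peak interval. With a limit of 2000 bp, 17 genes had a summit in both replicates instead of 8, 8 core genes had a pooled summit instead of 5, the thresholded list gave 2 genes instead of 1, and the core minus regulatory difference in the pooled list became 9.77 percentage points instead of -6.39. With 500 bp, both replicates gave 5. With the 5000 highest peaks, the pooled list gave 7 genes instead of 13 (1 of them core), replicate 1 gave 6 instead of 19, replicate 2 gave 7 instead of 12, both gave 2, and the difference was -24.4 points. Counting a summit for its nearest protein-coding gene alone, replicate 1 gave 11, both replicates 4, and the core particle 3. With the upper 50% of peaks, both replicates gave 5, the core particle 3 and the thresholded list 0. Summits within 500 bp of each other were found at 8 genes, not 5, beside 75.2% of all genes with a summit in both replicates. The share of all genes with a pooled summit moved as well, from 46.1% to 64.9% with 2000 bp and 29.4% with 500 bp. It was 41.3% by nearest gene, 27.4% with the upper 50% of peaks and 11.5% with the 5000 highest. With the 5000 highest it was 12.2% in replicate 1, 10.7% in replicate 2 and 3.41% in both. For both replicates and the thresholded list no other share of all genes is given. Leaving out a replicate gave 12 to 19 genes in place of 8, by construction. For the other moves the cause was not tested. The direction of the core and regulatory difference thus depended on the distance limit. No paired analysis was possible because all samples belong to 1 group.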
